A study of Mus musculus with 6 samples.

Results

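Abundant long noncoding RNAs were examined in whole testes of Hsf5 knockout mice and of control mice at postnatal day 16. The deposited table lists 29333 genes, of which 5913 carry the type lncRNA. From these, 85 were chosen: every lncRNA with a mean of at least 200 over the 4 libraries and a symbol that does not end in Rik, leaving out H19, Meg3, Kcnq1ot1, Airn, Rian and Mirg. Values are normalised read counts, which here means reads per gene divided by 1 size factor per library. The members were thus chosen by their measured mean over both groups, and their levels are given as a description. The tested animals are Hsf5-/-, and the controls are called wild type in the sample labels, while the series text also allows Hsf5+/- animals among them. No source used here gives the strain, the making of the mutant allele or the number of animals behind a library. Of the 3 samples labelled in each group, knockout 1 and 3 and control 1 and 2 had value columns, and the remaining samples were not analysed here. The p-values below therefore rest on the spread between 2 libraries a group, which may be partly technical, and largely on variance pooled over genes.

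Long noncoding RNAs are transcripts that are processed much like messenger RNAs but encode no known protein. Some work as scaffolds of nuclear bodies, some carry small nucleolar RNAs (snoRNAs) or microRNAs in their introns or exons, and some act on a gene beside them while they are transcribed. In the mouse testis, many are made in meiotic spermatocytes, where a broad programme of testis-restricted transcription is switched on during pachytene. HSF5, the product of the gene that the labels name as knocked out, is a member of the heat shock factor family of transcription factors that is found in spermatocytes.

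Depth was similar in the 4 libraries, between 16209093 reads in knockout 3 and 18557898 reads in control 2. Hsf5 itself, on chromosome 11, had 1926 and 1602 normalised reads in the knockout libraries, against 2541 and 3147 in the controls. Its log2 fold change was -0.69 (limma, Benjamini-Hochberg adjusted p = 0.00716), a call that was lost without knockout 3 (adjusted p = 0.072) and without control 2 (adjusted p = 0.108), and at 62.0% of control it does not by itself check the knockout label. Markers of pachytene and diplotene spermatocytes fell: 19 of the 20 tested were called lower and none higher, with a median log2 fold change of -2.03. Their summed normalised reads were 26093 and 20811 in the knockout libraries, against 71725 and 108544 in controls 1 and 2. Of 20 Sertoli cell markers, 5 rose and none fell, with sums of 176083 and 166219 in the knockouts against 151929 and 144727 in the controls. None of these 5 calls held without control 2 (limma, lowest Benjamini-Hochberg adjusted p = 0.08, for Defb36). Of 14 spermatogonia markers 4 were called higher and 1 lower, and of 15 early meiotic prophase markers 4 were lower and none higher. Over all genes tested, 3.28% were called higher and 13.5% lower. Of 10 Leydig cell markers none was called, and their sums differed within groups, at 6102 and 4486 in the knockouts against 4984 and 7981 in the controls. Red blood cell markers summed to 1852 and 2319 in the knockouts against 1452 and 1207 in the controls, with 3 of 5 called higher. In whole-testis RNA, fewer cells of a type and less RNA per cell cannot be told apart, and the part of these marker differences in the results below was not tested.

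Of the 85 RNAs, 25 fell in the knockout, 10 rose, and 50 did not pass the test. A gene was called at a limma Benjamini-Hochberg adjusted p under 0.05 over all 17480 genes with a mean of at least 10. The 25 falls are 29.4% of the members, against 13.5% of all genes tested and 16.7% of genes with a mean of at least 200. The 10 rises are 11.8% of the members, against 3.28% of all genes tested and 5.03% of genes with a mean of at least 200. These shares are no measure of how the RNAs differ from other genes, because a mean over both groups admits an RNA that is high in 1 group only. Of the 25 that fell, 19 had a knockout mean under 200, and of the 10 that rose, Snhg8 and Bc1 had a control mean under 200. In the authors' deposited table, 25 of the members pass an adjusted p of 0.05 with a lower value and 9 with a higher one, against 11.3% and 2.26% of the 20234 genes with such a value, and limma called all of these in the same direction. The median log2 fold change of the 85 in the limma fit was 0.03, against 0.015 over all genes tested. Knockout and control values did not overlap for 33 members with the knockout lower (38.8%, against 31.9% of all genes tested) and for 31 with the knockout higher (36.5%, against 29.8%).

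**Figure D1:**
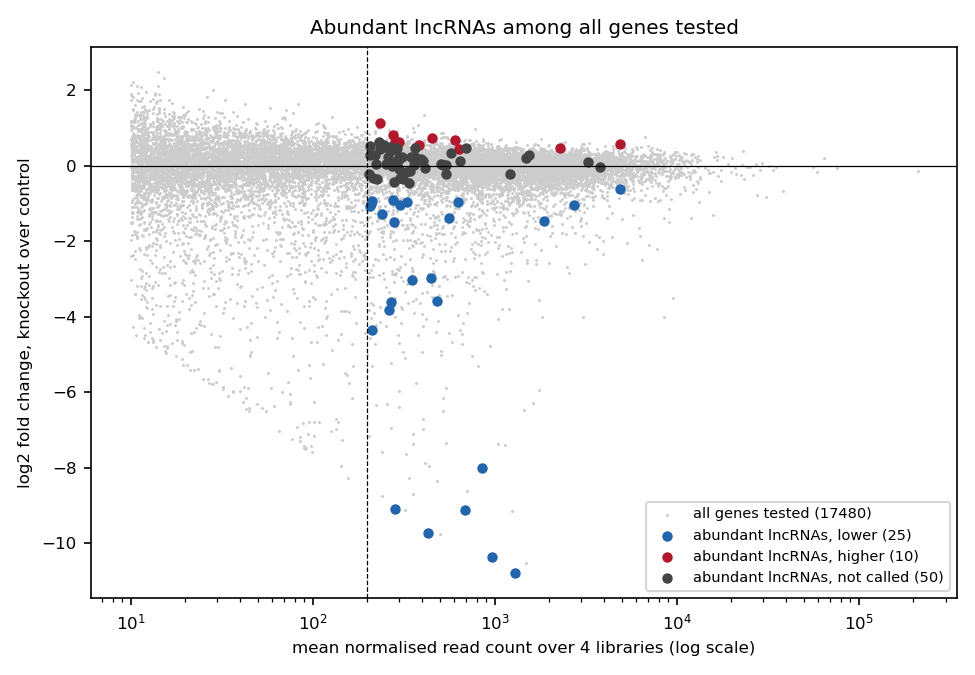
Each point is a gene, with its mean normalised read count over the 4 libraries on a log axis and its log2 fold change of knockout over control. Grey points are all 17480 genes tested, coloured points are the 85 abundant long noncoding RNAs by call, and the dashed line is the mean of 200 used to choose them. Falls reach -10.80 for Gm21269, and rises reach 1.14 for Bc1.

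Falls and rises differed in size. In fitted values, 20 of the 25 falls were at least 2-fold and 11 were at least 8-fold. These 11 are 12.9% of the members, against 2.19% of all genes tested and 1.26% of genes with a mean of at least 200. All 11 had a knockout mean under 200 and so became members through their control values. Their share is therefore no measure of how the members differ from other genes. Of the 10 rises, Bc1 reached 2-fold. The 25 that fell summed to 9513 and 8597 normalised reads in the knockout libraries, against 25446 in control 1 and 33609 in control 2. Most of the falling RNAs bear only a predicted-gene symbol, Gm followed by digits, as do 42 of the 85 members. Of these 42, 19 fell and 3 rose, against 25 and 10 of all 85. Among the 7 members classed as snoRNA hosts none fell and 3 rose, and among the 13 with an Ensembl identifier alone 2 fell and none rose. Over all genes tested 13.5% fell and 3.28% rose, and of genes with a mean of at least 200, 16.7% and 5.03%. The snoRNA host class was set by symbol (Gas5, or Snhg followed by a digit), so hosts with other symbols would be missed.

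The 2 controls also differed from each other along the falls. Control 2 lay above control 1 in 24 of the 25 RNAs that fell, by a median log2 difference of 0.44, and in 2 of the 10 that rose, with a median of -0.11. Over all genes tested the median difference was 0.02, and over the pachytene and diplotene markers it was 0.92. The part of this difference in the results was not tested.

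**Figure D2:**
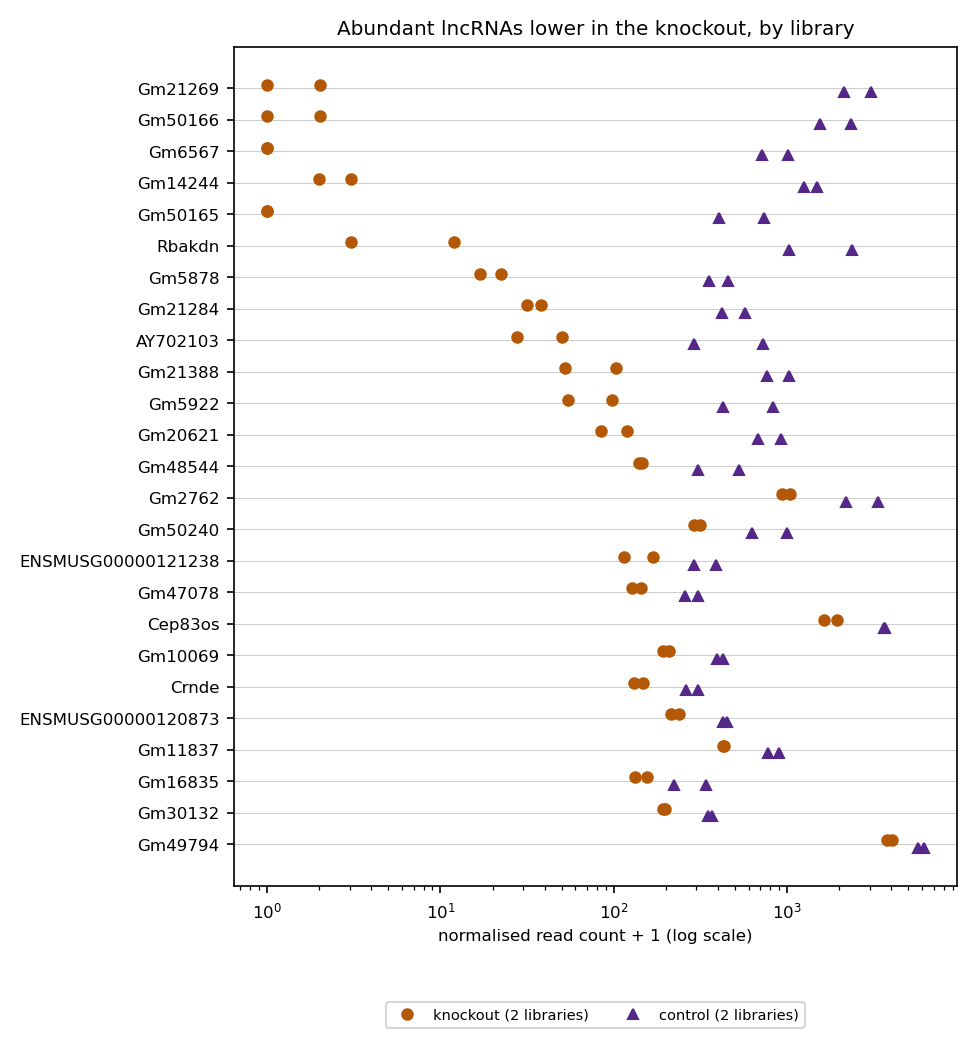
Normalised read count plus 1, on a log axis, in each library for the 25 abundant long noncoding RNAs called lower. Circles are the 2 knockout libraries and triangles the 2 control libraries. The groups do not overlap for any of the 25, and the gap narrows from Gm21269 at the top to Gm49794 at the bottom.

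Of these RNAs, 5 predicted genes were at or near 0 in the knockout. Gm21269, on chromosome 7, had 0 and 1.02 normalised reads in knockouts 1 and 3, against 2128 and 3027 in controls 1 and 2. Gm50166, on chromosome 18, had 0 and 1.02 in the knockouts, against 1540 and 2334 in the controls. Gm14244, on chromosome 2, had 1.0 and 2.05 in the knockouts, against 1249 and 1495 in the controls. All 3 were thus among the well-covered genes of both controls and all but absent from both knockouts. Gm6567, on chromosome 7, had no read in either knockout library, against 717 and 1012 normalised reads in the controls. Gm50165, on chromosome 18, also had no knockout read, against 403 and 738 in the controls.

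In sequenced reads, Gm21269 had 1 read in the knockout libraries together and 5248 in the controls, a depth-scaled ratio of 5080-fold lower (95% counting interval 911 to 201000). The ratio was 3810 (684 to 151000) for Gm50166, with 1 knockout read against 3942 control reads, and 902 (308 to 4380) for Gm14244, with 3 against 2796. Against a floor of 3 reads over the knockout group, Gm6567 was at least 568-fold lower and Gm50165 at least 374-fold lower. These intervals and floors cover counting error only. The fitted log2 fold changes were -10.80 for Gm21269, -10.38 for Gm50166, -9.74 for Gm6567, -9.11 for Gm14244 and -9.09 for Gm50165 (limma, Benjamini-Hochberg adjusted p between 7.3e-06 and 4.54e-05), and they depend on the pseudocount of 1. All 5 calls held without each library in turn. By its interval in the GENCODE M21 annotation, Gm21269 contains the microRNA gene Mir7234 on its own strand. In RefSeq, miR-7234-5p lies at chr7:73819590-73819612, before the start region listed for Gm21269 (chr7:73825674-73825973). The GENCODE and RefSeq annotations thus place the start of Gm21269 differently. The mature microRNA was not measured in these libraries. Gm50166 and Gm50165 lie 35060 bases apart on opposite strands.

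Rbakdn, named as the downstream neighbour of the zinc finger repressor gene Rbak, came next. It had 11.02 and 2.05 normalised reads in knockouts 1 and 3, against 1018 and 2359 in controls 1 and 2, so that neither group agreed closely within itself while the groups lay far apart. Rbakdn fell with a log2 fold change of -8.00 (SE 0.61, limma, Benjamini-Hochberg adjusted p = 0.000186). It was -8.99 without knockout 1, -7.01 without knockout 3, -8.61 without control 1 and -7.39 without control 2, and called each time. Rbak, which lies 6.4 kb from it on the same strand, had 303 and 354 normalised reads in the knockouts, against 310 and 291 in the controls (log2 fold change 0.12, adjusted p = 0.615). The Rbak groups overlapped. Per kilobase of exon, Rbakdn averaged 10.3 in the knockouts and 2655 in the controls.

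The start regions of the 6 most reduced RNAs that had one in the RefSeq table are shown because HSF5 belongs to a family that binds heat shock elements, repeats of GAA units in alternating orientation, and because the MYB family factor MYBL1 also drives the pachytene programme. Mybl1 itself fell in the knockout (log2 fold change -0.61, limma, Benjamini-Hochberg adjusted p = 0.00406), a call lost without knockout 3 (adjusted p = 0.053) and without control 2 (adjusted p = 0.0623). RefSeq (GRCm38.p6) gave a start region, 250 bases before to 50 after the annotated start, for 41 of the 85 members, among them 12 that fell and 6 that rose. Capitals mark matches on either strand to a heat shock element of 2 units (GAANNTTC or TTCNNGAA) or to a MYB element (AACNGNC or its reverse complement). No heat shock match overlapped a MYB match in the 6 regions printed, which are each given on the gene's strand.
Gm21269, chr7:73825674-73825973, plus strand: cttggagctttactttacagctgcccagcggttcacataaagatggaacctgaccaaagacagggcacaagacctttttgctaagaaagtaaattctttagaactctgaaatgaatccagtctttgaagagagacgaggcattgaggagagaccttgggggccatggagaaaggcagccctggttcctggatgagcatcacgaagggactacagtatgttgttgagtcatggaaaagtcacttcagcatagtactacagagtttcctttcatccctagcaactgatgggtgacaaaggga
Gm6567, chr7:73102019-73102318, minus strand: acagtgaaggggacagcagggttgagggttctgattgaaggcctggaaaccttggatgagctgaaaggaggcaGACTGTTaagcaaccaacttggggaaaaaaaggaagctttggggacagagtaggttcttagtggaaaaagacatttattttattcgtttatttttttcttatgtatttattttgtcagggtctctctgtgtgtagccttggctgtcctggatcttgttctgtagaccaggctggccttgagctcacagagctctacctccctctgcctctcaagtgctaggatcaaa
Gm14244, chr2:127691604-127691903, plus strand: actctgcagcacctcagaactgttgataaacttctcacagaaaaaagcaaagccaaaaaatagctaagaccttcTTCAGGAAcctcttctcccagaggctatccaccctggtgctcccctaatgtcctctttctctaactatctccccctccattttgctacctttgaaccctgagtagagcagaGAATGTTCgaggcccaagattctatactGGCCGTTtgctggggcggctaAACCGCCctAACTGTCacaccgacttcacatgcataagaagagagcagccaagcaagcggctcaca
Rbakdn, chr5:143165702-143166001, minus strand: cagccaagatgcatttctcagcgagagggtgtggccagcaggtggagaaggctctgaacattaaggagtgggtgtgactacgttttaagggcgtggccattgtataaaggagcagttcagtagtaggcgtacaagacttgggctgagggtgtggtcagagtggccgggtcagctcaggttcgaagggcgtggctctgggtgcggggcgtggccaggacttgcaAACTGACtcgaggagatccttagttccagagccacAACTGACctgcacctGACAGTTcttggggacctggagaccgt
Gm21284, chr6:83567789-83568088, plus strand: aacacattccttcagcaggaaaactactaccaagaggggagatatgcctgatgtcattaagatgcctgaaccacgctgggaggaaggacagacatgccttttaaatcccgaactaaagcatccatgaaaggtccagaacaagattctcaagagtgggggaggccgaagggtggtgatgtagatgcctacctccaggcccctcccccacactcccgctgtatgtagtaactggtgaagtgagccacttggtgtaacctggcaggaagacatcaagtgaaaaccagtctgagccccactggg
AY702103, chr17:50238958-50239257, plus strand: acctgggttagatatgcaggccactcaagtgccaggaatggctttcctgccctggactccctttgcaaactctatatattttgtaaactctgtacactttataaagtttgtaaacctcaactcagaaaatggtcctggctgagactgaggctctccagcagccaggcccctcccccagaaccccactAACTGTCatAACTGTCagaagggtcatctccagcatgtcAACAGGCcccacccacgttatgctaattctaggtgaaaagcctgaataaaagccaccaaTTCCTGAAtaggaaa

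Gm14244 held 2 heat shock matches, beginning at -176 and -65 from the annotated start, and 3 MYB matches, the nearest beginning at -7. AY702103 held 1 heat shock match, beginning at 35, and 3 MYB matches. Rbakdn held 3 MYB matches and Gm6567 held 1, with no heat shock match in either, and Gm21269 and Gm21284 held neither motif in their windows. A heat shock element of 2 units was found in 2 of the 12 RNAs that fell (16.7%) and in none of the 6 that rose, against 15.1% of the start regions of all 27025 genes. The MYB element was found in 7 of the 12 that fell (58.3%), none of the 6 that rose and 10 of the 23 not called (43.5%), against 32.8% of all genes. Median GC content was 50.7% for the 12 that fell, 62.3% for the 6 that rose, 55.7% for the 23 not called and 52.7% for all genes. These matches describe letters in a window and show no binding, the number of regions is small, and the start used by the testis transcript may be another.

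The other falls of at least 8-fold left a measurable remainder in both knockouts. Gm5878, on chromosome 6, had 16.0 and 21.5 normalised reads in the knockouts, against 354 and 452 in the controls. Gm21284, also on chromosome 6, had 37.1 and 30.7 in the knockouts, against 419 and 571 in the controls. AY702103, an unnamed clone transcript on chromosome 17, had 49.1 and 26.6 in the knockouts, against 289 and 721 in the controls. Of these RNAs, AY702103 had controls that differed most from each other. Gm21388, on chromosome 3, had 102 and 51.2 in the knockouts, against 760 and 1019 in the controls. Gm5922, on chromosome 9, had 96.2 and 53.3 in the knockouts, against 426 and 824 in the controls. In each of these RNAs the lower control stood above the higher knockout.

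The log2 fold changes were -4.36 for Gm5878, -3.82 for Gm21284, -3.62 for AY702103, -3.58 for Gm21388 and -3.03 for Gm5922 (limma, Benjamini-Hochberg adjusted p between 8.45e-05 and 0.00099). AY702103 had a log2 fold change of -4.28 without control 1 and -2.96 without control 2, and stayed called (adjusted p = 0.00698 and 0.0387). Gm20621, on chromosome 15, fell by nearly as much, to 118 and 83.0 normalised reads in the knockouts, against 677 and 921 in the controls (log2 fold change -2.98, adjusted p = 0.000153). It shares exons on the same strand with the tubulin glycylase gene Ttll8, which was not tested at these levels. No call in this group was lost without 1 library.

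The 3 falling RNAs of highest mean kept 65.6%, 48.8% and 35.7% of their control level. A mean over both groups ranks RNAs that keep knockout reads higher. Gm21269 had a control mean of 2578, near the 2759 of Gm2762, and kept 0.02%. Gm49794, on chromosome 17, had the highest mean of the 85 at 4914 normalised reads: it had 4009 and 3778 in the knockouts, against 5699 and 6170 in the controls. Cep83os, the opposite-strand transcript that starts beside the centriolar gene Cep83, had 1929 and 1633 in the knockouts, against 3669 and 3633 in the controls. Gm2762, on chromosome 13, had 1031 and 937 in the knockouts, against 2197 and 3322 in the controls. The 2 knockouts agreed well for all 3 RNAs, and the controls agreed closely for Cep83os but not for Gm2762. The log2 fold changes were -0.61 for Gm49794 (SE 0.07), -1.04 for Cep83os (SE 0.09) and -1.46 for Gm2762 (SE 0.17), with limma Benjamini-Hochberg adjusted p of 0.00109, 0.000345 and 0.000928. Each was called in all 4 fits that left out 1 library. Gm49794 carries the microRNA genes Mir7217 and Mir7218 on its strand and lies 9278 bases from Gm10505, another member on the same strand, which had 265 and 284 in the knockouts against 370 and 329 in the controls and was not called (adjusted p = 0.143).

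The other 10 falls lay between -1.50 and -0.90 on the log2 scale. Gm11837, on chromosome 4, had 429 and 427 normalised reads in the knockouts, against 772 and 895 in the controls (log2 fold change -0.96), and Gm50240, on chromosome 17, had 312 and 291 in the knockouts, against 628 and 1004 in the controls (-1.40). Both kept their calls without each library. Crnde, an RNA first described in human colorectal tumours, had 147 and 130 in the knockouts, against 260 and 304 in the controls (log2 fold change -1.02, limma Benjamini-Hochberg adjusted p = 0.00582). The groups did not overlap, but the call was lost without knockout 3 (adjusted p = 0.0603) and without control 2 (adjusted p = 0.122). Without control 2, the calls of Gm48544, ENSMUSG00000121238, Gm47078, Gm10069, ENSMUSG00000120873, Gm16835 and Gm30132 were lost as well, with limma adjusted p of 0.0653, 0.15, 0.118, 0.0617, 0.065, 0.249 and 0.0862. Without knockout 3, those of ENSMUSG00000121238, Gm47078 and Gm16835 were lost (adjusted p = 0.0592, 0.0558 and 0.0925), and without knockout 1 that of Gm16835 (adjusted p = 0.15). In all, 17 of the 25 falls were called in each of the 4 fits that left out 1 library.

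Rises were small, and none of the 10 was called in all 4 fits that left out 1 library. With libraries scaled to equal Sertoli cell markers, which moved the median log2 fold change of all genes to -0.19, Snhg8 and Bc1 were the 2 that stayed called. Bc1, a short rodent RNA made by RNA polymerase III that is known as a repressor of translation in neurons, had 359 and 289 normalised reads in the knockouts, against 158 and 135 in the controls. Both knockouts lay above both controls, with a log2 fold change of 1.14 (SE 0.18, limma, Benjamini-Hochberg adjusted p = 0.00404). The call was lost without knockout 1 (adjusted p = 0.0538) and without control 2 (adjusted p = 0.0791). Bc1 is so short that its level is easily misread beside longer genes: per kilobase it averaged 1928 in the knockouts and 872 in the controls. Its annotated sequence is shown whole, with no part in capitals, because Bc1 is the shortest RNA that rose and carries an internal run of A bases, and no source used here says how RNA was selected for the libraries. It is from the GENCODE M21 annotation of GRCm38, chr7:144914470-144914637, plus strand, 168 bases.
Bc1: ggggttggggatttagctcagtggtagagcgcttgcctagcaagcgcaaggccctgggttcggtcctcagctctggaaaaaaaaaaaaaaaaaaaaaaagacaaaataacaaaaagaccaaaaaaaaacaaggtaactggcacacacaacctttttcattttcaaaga

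**Figure D3:**
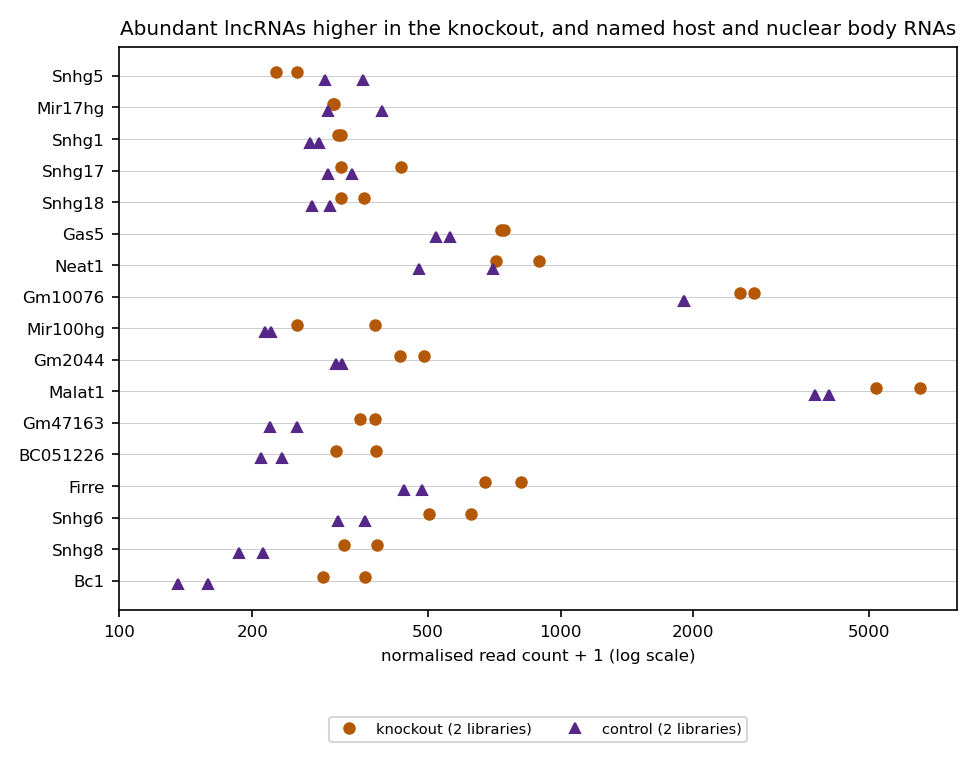
Normalised read count plus 1, on a log axis, in each library for the 10 abundant long noncoding RNAs called higher and for the other snoRNA host, microRNA host and nuclear body RNAs. Circles are the 2 knockout libraries and triangles the 2 control libraries. The groups of the 10 called RNAs do not overlap, and those of Mir17hg and Snhg17 do.

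The nuclear body RNAs were both higher in the mean, and Malat1 passed the test. Malat1, an abundant RNA retained in nuclear speckles, where splicing factors are stored, had 5175 and 6520 normalised reads in the knockouts, against 4055 and 3764 in the controls. Neat1, the scaffold of paraspeckles, had 893 and 713 in the knockouts, against 476 and 701 in the controls. The lower knockout stood only just above the higher control for Neat1, while the Malat1 groups lay further apart. Malat1 differed by 0.57 on the log2 scale (SE 0.11, limma, Benjamini-Hochberg adjusted p = 0.00852), and Neat1 by 0.47 (SE 0.19, adjusted p = 0.135). The 2 genes lie 22036 bases apart on the same strand of chromosome 19. The Malat1 call was lost without knockout 3 (adjusted p = 0.0595), without control 1 (adjusted p = 0.0648) and without control 2 (adjusted p = 0.15). Per kilobase of exon, Malat1 averaged 837 in the knockouts and 560 in the controls, and Neat1 averaged 38.7 in the knockouts and 28.3 in the controls.

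Among 16 paraspeckle proteins, 2 rose and 3 fell, and the median log2 fold change was -0.14. For this list and the next, the shares over all genes tested were 3.28% called higher and 13.5% lower. Of genes with a mean of at least 200, they were 5.03% and 16.7%. Matr3, a nuclear matrix protein, had a log2 fold change of -0.40 and Pspc1, a core paraspeckle component, one of -0.39 (limma, Benjamini-Hochberg adjusted p = 0.0143 and 0.012). Of the 4 fits with 1 library left out, both were called only in the one without knockout 1 (adjusted p = 0.0244 for Matr3 and 0.0323 for Pspc1). Among 17 nuclear speckle proteins 3 fell and none rose, and the median was -0.15. The largest falls were those of Srrm1, a splicing coactivator (-0.29), and Acin1 (-0.28), and neither was called in any fit with 1 library left out (lowest adjusted p = 0.0959 and 0.0955).

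The introns of snoRNA host genes release the small RNAs that guide modification of ribosomal RNA. Of the 7 members classed so by symbol, 3 rose and none fell, against 1 higher (Snhg8) and 1 lower (Snhg5) with Sertoli marker scaling. Over all genes tested in the main fit, 3.28% rose and 13.5% fell. Gas5 had 744 and 730 normalised reads in the knockouts, against 560 and 521 in the controls. Snhg6 had 626 and 503 in the knockouts, against 312 and 360 in the controls. Snhg8 had 383 and 322 in the knockouts, against 210 and 185 in the controls. The groups of these 3 RNAs did not overlap. The log2 fold changes were 0.45, 0.74 and 0.83 for Gas5, Snhg6 and Snhg8 (limma, Benjamini-Hochberg adjusted p = 0.0246, 0.012 and 0.0106). Snhg5 lay the other way, with 252 and 225 in the knockouts against 291 and 356 in the controls (log2 fold change -0.43, adjusted p = 0.113). Snhg1, Snhg17 and Snhg18 had log2 fold changes of 0.19, 0.23 and 0.24 and were not called.

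None of the 3 calls held in every fit that left out 1 library. Gas5 missed the threshold in all 4 (adjusted p between 0.0516 and 0.154), Snhg6 without knockout 1, control 1 or control 2 (adjusted p = 0.118, 0.0886 and 0.0786), and Snhg8 without knockout 1 or control 2 (adjusted p = 0.112 and 0.125). Of 15 snoRNP proteins, which package snoRNAs into active particles, 3 rose and 2 fell, and the median log2 fold change was 0.01. The H/ACA core proteins Gar1 and Nhp2 had log2 fold changes of 0.40 and 0.38, and the assembly ATPase Ruvbl2 had one of -0.71 (limma, Benjamini-Hochberg adjusted p = 0.0231, 0.0156 and 0.00242). Gar1 and Nhp2 were not called in any fit with 1 library left out (lowest adjusted p = 0.0596 and 0.0602), and Ruvbl2 lost its call without control 2 (adjusted p = 0.0527). Spliced snoRNA host transcripts are known substrates of nonsense-mediated decay. Of 17 factors of that pathway 3 fell and none rose, with a median of -0.12. Beside the snoRNP and decay lists, 13.5% of all genes tested were called lower and 3.28% higher. Of genes with a mean of at least 200, these shares were 16.7% and 5.03%. Whether the decay factors bear on the host RNAs was not tested. The largest falls were those of Smg9 (log2 fold change -1.07, limma, Benjamini-Hochberg adjusted p = 0.00472) and Upf3a (-0.85, adjusted p = 0.000826). Upf3a was called without each library, and Smg9 missed the threshold without knockout 3 (adjusted p = 0.0533).

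The other rises were those of Firre, Gm10076, Gm2044, Gm47163 and BC051226. Firre, an X-linked RNA that is kept near its own locus and organises chromosome contacts there, had 672 and 813 normalised reads in the knockouts, against 440 and 485 in the controls (log2 fold change 0.68, limma Benjamini-Hochberg adjusted p = 0.00957). Its call was lost without knockout 3, control 1 or control 2 (adjusted p = 0.118, 0.0728 and 0.0739). Gm10076, on chromosome 14, had 2747 and 2549 in the knockouts, against 1899 in each control (0.48, adjusted p = 0.00453), and missed the threshold narrowly without knockout 1 (adjusted p = 0.0548) and without control 2 (adjusted p = 0.0553). Gm47163 and BC051226 rose by 0.63 and 0.64 and were not called in any fit with 1 library left out (lowest adjusted p = 0.056 and 0.0788).

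Gm10076 needs its copy beside it. In GENCODE M21, 383 of the 384 bases of its transcript (99.7%) match the messenger of the ribosomal protein gene Rpl41 at 95% identity or more, so reads cannot be assigned to either with certainty. Rpl41 had 10347 and 9675 normalised reads in the knockouts, against 7959 and 8664 in the controls (log2 fold change 0.27, limma Benjamini-Hochberg adjusted p = 0.0362), a call lost in every fit with 1 library left out (lowest adjusted p = 0.101). Per kilobase, Gm10076 would be the most abundant member, at 6896 in the knockouts and 4946 in the controls. Stretches of at least 200 bases that match another gene were found in 16 members, and in Gm20186, Gm47283 and Norad they also cover more than 50% of the transcript: 62.5%, 58.2% and 51.6%. Bc1, at 168 bases, is too short to give such a match, so copies of it could not be found. Gm47283, on chromosome Y, is a protein-coding gene in GENCODE M21, and its lncRNA type is that of the deposited table.

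By their GENCODE M21 intervals, several of the 85 RNAs harbour microRNAs on their own strand. Some are printed, each with its seed (bases 2 to 8) in capitals, because RNA libraries of this kind report the long precursor and not the mature form. Shown are the products of Mir202 and Mir7234, which lie in called hosts, and arms from Mir17hg and Dleu2 that show shared seeds, with miR-92a-3p beside them, while the other arms of these hosts and those in Gm49794, Gm10505 and Mir100hg are not shown. Gm2044 contains Mir202, a microRNA gene whose products are enriched in the gonads. The members of the cluster in Mir17hg fall into seed families, and miR-17-5p and miR-20a-5p share AAAGUGC while miR-19a-3p and miR-19b-3p share GUGCAAA. In Dleu2, miR-15a-5p and miR-16-5p share AGCAGCA. The sequences are from RefSeq (GRCm38.p6).
miR-202-3p, in Gm2044: aGAGGUAUagcgcaugggaaga
miR-202-5p, in Gm2044: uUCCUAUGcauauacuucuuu
miR-7234-5p, in Gm21269: uUGUUUUCuccaaagacguuucu
miR-7234-3p, in Gm21269: aAACGUCUuucuaggguagaagg
miR-17-5p, in Mir17hg: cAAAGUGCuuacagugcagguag
miR-20a-5p, in Mir17hg: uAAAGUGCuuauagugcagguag
miR-19a-3p, in Mir17hg: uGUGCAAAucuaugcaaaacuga
miR-19b-3p, in Mir17hg: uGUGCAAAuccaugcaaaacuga
miR-92a-3p, in Mir17hg: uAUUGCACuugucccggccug
miR-15a-5p, in Dleu2: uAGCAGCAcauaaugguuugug
miR-16-5p, in Dleu2: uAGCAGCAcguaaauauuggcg

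Gm2044 had 431 and 489 normalised reads in the knockouts, against 318 and 308 in the controls. The knockouts lay above the controls, with a log2 fold change of 0.55 (limma, Benjamini-Hochberg adjusted p = 0.0253), and the call was lost in every fit with 1 library left out (adjusted p between 0.0801 and 0.225). Mir17hg, host of a cluster that promotes proliferation, had 306 and 304 in the knockouts, against 297 and 393 in the controls, and the groups overlapped (log2 fold change -0.16, adjusted p = 0.559). Mir100hg, host of miR-100, let-7a-2 and miR-125b-1, had 252 and 379 in the knockouts, against 220 and 213 in the controls (0.51, adjusted p = 0.134), without overlap. Dleu2 had 351 and 379 in the knockouts, against 342 and 371 in the controls (0.03, adjusted p = 0.897). Of 15 genes of microRNA processing 2 fell and none rose, with a median log2 fold change of -0.05. Over all genes tested 13.5% were called lower and 3.28% higher, and 16.7% and 5.03% of those with a mean of at least 200. Ago4, an Argonaute protein active in the male germ line, had a log2 fold change of -0.84 (limma, adjusted p = 0.00138) and was called without each library. Tarbp2, a Dicer partner, had one of -0.57 (limma, adjusted p = 0.0295), called only without control 1 of the 4 fits.

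Of the 50 RNAs that did not pass the test, 21 had overlapping groups, and the 50 log2 fold changes lay between -0.45 and 0.64. Norad, a cytoplasmic RNA that binds Pumilio proteins, had 3718 and 3840 normalised reads in the knockouts, against 3735 and 3955 in the controls (log2 fold change -0.02, SE 0.07, limma Benjamini-Hochberg adjusted p = 0.855). Oip5os1, also called Cyrano, which directs the destruction of miR-7 in mice, had 3245 and 3484 in the knockouts, against 3181 and 3076 in the controls (0.10, SE 0.08, adjusted p = 0.393). These are the 2 most abundant uncalled members on the normalised scale, and the Norad groups overlapped while those of Oip5os1 did not. AU020206, Gm45889 and Gm20186 followed, with log2 fold changes of 0.28, 0.20 and -0.20 (adjusted p = 0.121, 0.273 and 0.214). A p above the threshold does not show that levels were equal.

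Chaserr, which restrains its neighbour Chd2 in mice, had 431 and 378 normalised reads in the knockouts, against 418 and 427 in the controls (log2 fold change -0.07, limma Benjamini-Hochberg adjusted p = 0.774). Chd2, a chromatin remodeller with which it shares exon bases on the same strand, had a log2 fold change of -0.04. Wt1os, opposite to the Sertoli cell transcription factor gene Wt1, had 375 and 290 in the knockouts, against 236 and 255 in the controls (0.43, adjusted p = 0.129), and Wt1 itself had a log2 fold change of 0.18 (adjusted p = 0.195). The X-linked Tslrn1, named as a testis-specific RNA, had 214 and 167 in the knockouts, against 203 and 273 in the controls, with overlapping groups (-0.31, adjusted p = 0.359). Of 12 genes tested from the X inactivation centre list, 1 fell and none rose, against 13.5% and 3.28% of all genes tested. The gene that fell was Lbr, a nuclear envelope receptor (log2 fold change -0.45, limma adjusted p = 0.0076). Its call held only without control 1 (adjusted p = 0.0286).

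Genes beside the falling RNAs were then read in the same fit, since long noncoding RNAs often share a start region or exons with a protein-coding gene. GENCODE M21 placed 72 of the 85, and 26 had a tested protein-coding gene that overlapped them or started within 2000 bases on the opposite strand. Beside the 7 such RNAs that fell, 3 coding genes were called lower, none higher and 5 were not called. Beside the 4 that rose, 1 coding gene was called higher and 3 were not called. Beside the 15 not called, 2 coding genes were lower, 1 was higher and 16 were not called. Of all genes tested, 13.5% were called lower and 3.28% higher. Of genes with a mean of at least 200, these shares were 16.7% and 5.03%. No source used here gives the strand setting of the counting, so reads from overlapping exons of both strands cannot be told apart.

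Stambp, which encodes a deubiquitinating enzyme of endosomes and overlaps exons of Gm21284 on the other strand, had 465 and 486 normalised reads in the knockouts, against 2952 and 2810 in the controls. Uggt2, which encodes a glycoprotein folding sensor and overlaps exons of Gm16835, had 575 and 564 in the knockouts, against 1042 and 1133 in the controls. Cep83, which lies 0.1 kb from Cep83os, had 2701 and 2484 in the knockouts, against 3189 and 3210 in the controls. In each of these 3 coding genes both knockouts lay below both controls. The log2 fold changes were -2.60 for Stambp, -0.93 for Uggt2 and -0.30 for Cep83 (limma, Benjamini-Hochberg adjusted p = 7.3e-06, 0.000761 and 0.0294). Stambp and Uggt2 were called without each library, and Cep83 was not called in any of these fits (lowest adjusted p = 0.0716). Irx5, a homeobox gene that lies 1.5 kb from Crnde, had 34.1 and 15.4 in the knockouts, against 34.9 and 58.5 in the controls, and was not called (log2 fold change -0.95, adjusted p = 0.215). Btbd9, opposite to Gm50240, had a log2 fold change of -0.14 (adjusted p = 0.392), and Necab1, opposite to Gm11837, one of 0.63 (adjusted p = 0.236). Fkbp4 and Pzp, both beside Gm10069, had log2 fold changes of -0.23 and -0.50 and were not called.

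Of the genes beside rising RNAs, Shc2, opposite to Gm47163, was called higher (log2 fold change 0.32, limma Benjamini-Hochberg adjusted p = 0.042) but not in any fit with 1 library left out (lowest adjusted p = 0.12). Zbtb37 beside Gas5, Mcmdc2 beside Snhg6 and Daxx beside BC051226 had log2 fold changes of 0.21, -0.26 and -0.20 and were not called. Sema5a, a guidance receptor gene that starts beside the uncalled Snhg18, rose (0.44, adjusted p = 0.0114), a call that held only without control 1 (adjusted p = 0.0365). Thumpd3, opposite to Gt(ROSA)26Sor at the Rosa26 locus, fell (-0.59, adjusted p = 0.0229), and so did Eno3 beside Gm12319 (-0.52, adjusted p = 0.0266), and both calls held only without control 1 (adjusted p = 0.0202 and 0.0485).

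**Figure D4:**
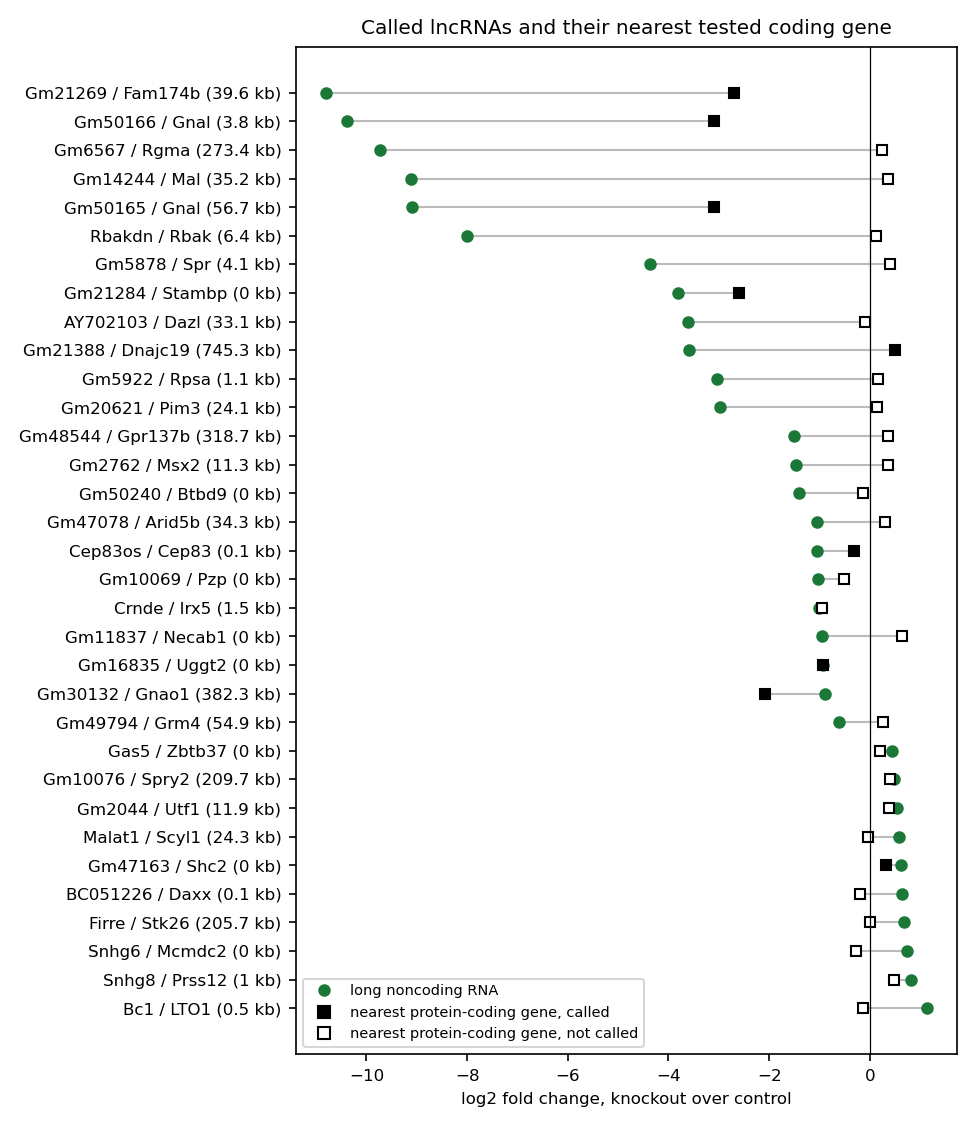
Log2 fold change of knockout over control for the called long noncoding RNAs that GENCODE M21 places (circles) and for the nearest tested protein-coding gene (squares, filled where called), with the distance between the genes in kb. A distance of 0 means that the genes overlap. Filled squares to the left of 0 are Fam174b, Gnal, Stambp, Uggt2, Gnao1 and Cep83, and of the open squares Irx5 (-0.95) and Pzp (-0.50) lie furthest to the left.

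The nearest tested protein-coding gene was called lower for 7 of the 23 falling RNAs placed by GENCODE M21, higher for 1 and not called for 15, while 13.5% of all genes tested were called lower. For the 11 falls of at least 8-fold these counts were 4, 1 and 6, and the pair Gm50166 and Gm50165 share their nearest gene. For the 10 rising RNAs they were 0, 1 and 9, and for 39 uncalled RNAs they were 2, 2 and 35. The median log2 fold change of the nearest gene was 0.12 beside the falling RNAs, 0.11 beside the rising ones and 0.05 beside the uncalled ones. Fam174b, 39.6 kb from Gm21269, had 36.1 and 44.0 normalised reads in the knockouts, against 239 and 289 in the controls (log2 fold change -2.69, limma Benjamini-Hochberg adjusted p = 0.000311). Gnal, a G protein gene that lies 3.8 kb from Gm50166 and 56.7 kb from Gm50165, had 1.0 and 3.07 in the knockouts, against 15.5 and 34.7 in the controls (-3.09, adjusted p = 0.0198). The Gnal call held only without control 1 (adjusted p = 0.0194), and that of Fam174b held without each library. Gnao1, 382.3 kb from Gm30132, had 296 and 325 in the knockouts, against 1197 and 1437 in the controls (-2.08, adjusted p = 8.45e-05).

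Dazl, a germ cell RNA-binding protein gene 33.1 kb from AY702103, had 14728 and 13918 normalised reads in the knockouts, against 15616 and 15155 in the controls (log2 fold change -0.10, limma Benjamini-Hochberg adjusted p = 0.307). Rpsa, a ribosomal protein gene 1.1 kb from Gm5922, had 12157 and 11603 in the knockouts, against 10908 and 10391 in the controls (0.16, adjusted p = 0.137). Mal, 35.2 kb from Gm14244, was low in every library, at 28.1 and 15.4 in the knockouts, against 13.6 and 18.8 in the controls. Dnajc19, at 745.3 kb from Gm21388, was called higher (0.50, adjusted p = 0.044), and that call was lost in every fit with 1 library left out (lowest adjusted p = 0.062).

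Genes of noncoding RNA turnover and modification were mostly not called. Of 20 genes listed for the nuclear exosome and noncoding RNA turnover 2 fell and none rose, with a median log2 fold change of -0.04. Over all genes tested 13.5% were called lower and 3.28% higher, and 16.7% and 5.03% of those with a mean of at least 200. Dis3l, an exonuclease of the cytoplasmic exosome, had 1103 and 988 normalised reads in the knockouts, against 2974 and 4324 in the controls (log2 fold change -1.78, limma Benjamini-Hochberg adjusted p = 0.000329), and was called without each library. Exosc5, an exosome ring subunit, had a log2 fold change of -0.40 (adjusted p = 0.0421), and its call held only without control 1 (adjusted p = 0.0241). Of 11 genes of N6-methyladenosine RNA methylation none was called, and the median was 0.05.

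The members just inside the mean of 200 were Crnde at 210.4, Gm47078 at 207.4, Gm16185 at 207.1, Gm47113 at 205.8 and ENSMUSG00000120992 at 203.5. Just outside stood Gm49708 at 199.9, Mir9-3hg at 189.2, Gm10762 at 188.3, ENSMUSG00000120109 at 184.2 and Med9os at 180.2, with log2 fold changes of 0.09, -0.27, -0.80, 0.01 and -1.81. With a minimum mean of 400, 31 RNAs would be members, of which 12 fell (38.7%) and 5 rose (16.1%). With a minimum of 100 there would be 177, of which 39 fell (22%) and 11 rose (6.21%). Among the 44 lncRNAs with a mean of at least 200 whose symbols end in Rik, 22 fell (50%) and none rose. Over all genes tested 13.5% fell and 3.28% rose, and of genes with a mean of at least 200, 16.7% and 5.03%. Each minimum is set on the mean over both groups and so admits RNAs that are high in 1 group only. The shares are therefore no measure of a link between abundance and change.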

How the data were processed

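Libraries of whole-testis RNA were made with an NEBNext Ultra kit, as the labels' protocols state. Per the submitters' processing notes, the tools were cutadapt, Bowtie2, featureCounts and DESeq2, with the mm39 build. No source used here gives their versions, their roles, the strand setting or the annotation release. The authors' deposited table holds, per the file headers, a normalised signal per library, and for each gene a mean signal, a log2 fold change, a test statistic score and p-values. The deposited signal is a read count over 1 size factor: every value was a whole multiple of its library's step (100% within 1e-06), which recovered whole reads.

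The main test was limma 3.58.1 (in R 4.3.3), which fitted log2(value + 1) with its mean-variance trend on 17480 genes whose mean was at least 10. A call needed a Benjamini-Hochberg adjusted p under 0.05. It drew on 6.3 prior and 2 residual degrees of freedom, so its p-values owe much to variance pooled over genes. Alternatives were edgeR 4.0.16 and DESeq2 1.42.0 on recovered reads, other scalings, pseudocounts and filters, and leaving out each library.

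Members and lists were chosen with earlier results of these data known. Named members were the 10 of highest mean, the 10 largest called changes each way, the 5 most abundant uncalled, the host and nuclear body classes, those at the threshold, and their partner genes. Others, and the nearest coding genes, were named after their values were seen. A gene that the rule for the lists would name is not reported here. The table has no coordinates, so neighbours, lengths and copies come from GENCODE M21 (GRCm38), another build than mm39. Sequences are from RefSeq and, for Bc1, GENCODE, with motif matches by exact letters.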

Additional observations from a re-analysis of the deposited data

How the results depend on the processing

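The 25 falls stayed between 20 and 30 in number, with no member reversed among those called, under pseudocounts of 0.5 and 5 (25 each), no filter on low values (20), a minimum mean of 50 (25), scaling to library totals (25), scaling to Sertoli cell markers (30, of which 25 shared), edgeR (25) and DESeq2 (25). Without the mean-variance trend 7 falls were called, those of Gm21269, Gm50166, Gm6567, Gm14244, Gm50165, Gm5878 and Gm21284, and these 7 kept their call under every alternative run. Leaving out 1 library in turn gave 17 to 25 falls, the fewest without control 2. The 10 rises depended on the setting: 2 without a filter, 0 without the trend, 20 with library totals, 2 with Sertoli marker scaling and 0 to 4 with 1 library left out (2 without knockout 1, 4 without knockout 3, 3 without control 1 and 0 without control 2), against 10 for each pseudocount, the minimum mean of 50 and edgeR, and 9 for DESeq2. Library totals moved the median log2 fold change of all genes to 0.12 and Sertoli scaling to -0.19, so the count of rises is relative to the scale used, and the other causes were not tested. Neat1 was called higher with library totals (0.57, limma adjusted p = 0.0405), and Snhg5 lower with Sertoli marker scaling (-0.64, limma adjusted p = 0.0359). At a minimum mean of 100 the share of members called higher was 6.21%. With 1 library left out, the lone library of a group is assumed to vary like the other group. No paired analysis was possible because the value columns of the 2 groups share only replicate number 1. Depth limits the RNAs with no knockout read, whose folds are lower bounds.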
